A study of Mus musculus with 38 samples.

Results

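The genes described are the nuclear-encoded parts of the oxidative phosphorylation machinery of liver mitochondria: complexes I to V and the complex I assembly factors that share their names. Members were the array probes with a single gene symbol that starts with Nduf, Uqcr, Atp5 or Cox4 to Cox8, or is Sdha, Sdhb, Sdhc or Sdhd. There were 193 such probes for 87 genes among the 36607 probes of the array, which name 17501 genes. Complex I had 33 genes on 48 probes, its assembly factors 7 genes on 12 probes, complex II 4 genes on 82 probes, complex III 8 genes on 9 probes, complex IV 18 genes on 23 probes and complex V 17 genes on 19 probes. Sdha alone had 77 probes, so gene values are means over a gene's probes, and counts of probes are also given for the 116 probes without it. The rule itself uses gene names and no measured value, although the set was chosen with earlier results of these data known. The 13 subunits encoded by mitochondrial DNA had 0 probes in the table.

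The livers came from 20 male mice that had all received N-nitrosodiethylamine (DEN, 10 µg/g by intraperitoneal injection as pups), a carcinogen that starts liver tumours. The knockout mice were Alb-Cre +/-; Met Fl/Fl. By this design the hepatocyte growth factor receptor c-Met is deleted where the albumin promoter drives Cre, mainly in hepatocytes. Liver cells in which Cre was never active keep the gene. The control mice were Alb-Cre +/- without floxed Met, so every mouse of both genotypes carried Cre and had received DEN. There were 5 mice in each of 4 groups: controls and knockouts called 3 months, and controls and knockouts called 5 months. The labels give their ages as 12 and 20 weeks, so whether the months count from birth or from the injection is not settled. The strain label was 129SV/C57BL6 for knockouts and B6129 for controls, so genotype and strain label cannot be told apart. Each liver was hybridised on two-colour arrays against 1 reference, RNA pooled from 5 wild-type B6129 male livers of 12 weeks. Of the 38 arrays, 19 had the liver in Cy5 and 19 had it in Cy3. Of the mice, 18 had both orientations.

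Oxidative phosphorylation turns the energy of NADH and succinate into ATP. Complex I (NADH dehydrogenase) and complex II (succinate dehydrogenase) pass electrons to ubiquinone, complex III passes them on to cytochrome c, and complex IV (cytochrome c oxidase) hands them to oxygen, while complex V (ATP synthase) uses the proton gradient that results. Most subunits are made from nuclear genes, and hepatocytes, which are rich in mitochondria, depend on the pathway for gluconeogenesis and urea synthesis. The nuclear genes are known targets of the transcription factors NRF1, GABP (an ETS family factor), YY1 and the estrogen-related receptors (ERR).

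Promoter sequences are shown because subunits of all 5 complexes shifted in 1 direction between the control groups, and these factors are the ones best known to bind such genes. In RefSeq's mouse assembly GRCm38.p6, 72 of the 87 genes had a promoter window of 300 bases, running from 250 before to 50 after the gene's start. Both strands were searched for the NRF1 motif (GCGCA and GCGC parted by any 1 base), CCGGAAG (ETS family, GABP), AAGATGG (YY1) and TCAAGGTCA (ERR), which do not contain each other. NRF1's motif was in 16 of the 72 member windows (22.2%) against 4.78% of all 27025 promoter windows. The ETS motif was in 17 (23.6% against 9.12%), YY1's in 10 (13.9% against 6.48%) and the ERR motif in 2, Sdhd and Atp5g3 (2.78% against 0.407%). At least 1 of the 4 was in 38 member windows (52.8%) against 18.8% of all windows. Member windows also held more GC (median 58.5% against 52.7%) and more CpG (median 19.5 against 7 per window), and whether this alone gives more matches was not tested. A match is a description of letters and not a bound site. For each complex the member with a window and the smallest adjusted p between the control groups is printed below on its own strand, as the last 120 bases before the start and the first 50 after it. Capitals mark motif matches on either strand.
Ndufa4 (complex I by name, chr6:11907401-11907570, minus strand, no motif in this stretch): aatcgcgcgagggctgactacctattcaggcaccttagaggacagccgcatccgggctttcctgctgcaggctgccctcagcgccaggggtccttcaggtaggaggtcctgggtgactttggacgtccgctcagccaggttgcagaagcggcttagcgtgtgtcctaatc
Sdhd (complex II, chr9:50603800-50603969, minus strand, NRF1, ETS and ERR motifs): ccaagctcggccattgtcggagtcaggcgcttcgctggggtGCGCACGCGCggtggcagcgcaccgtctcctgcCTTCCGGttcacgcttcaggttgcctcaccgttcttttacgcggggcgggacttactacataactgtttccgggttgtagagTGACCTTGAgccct
Uqcr11 (complex III, chr10:80406772-80406941, minus strand, ETS motif): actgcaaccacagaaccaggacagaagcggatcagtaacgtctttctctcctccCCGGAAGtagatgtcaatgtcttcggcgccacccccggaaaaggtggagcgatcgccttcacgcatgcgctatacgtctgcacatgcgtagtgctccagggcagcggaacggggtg
Cox7c (complex IV, chr13:86046746-86046915, minus strand, YY1 motif): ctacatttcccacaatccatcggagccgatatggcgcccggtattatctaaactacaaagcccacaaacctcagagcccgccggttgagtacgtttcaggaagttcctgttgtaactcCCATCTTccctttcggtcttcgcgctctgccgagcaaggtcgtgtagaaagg
Atp5l (complex V, chr9:44920693-44920862, minus strand, ETS motif): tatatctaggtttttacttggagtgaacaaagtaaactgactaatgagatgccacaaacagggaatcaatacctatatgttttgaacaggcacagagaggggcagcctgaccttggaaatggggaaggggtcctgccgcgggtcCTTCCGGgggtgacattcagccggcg
Of the stretches shown, that of Sdhd held 3 of the 4 motifs and that of Ndufa4 none. These genes were chosen for their difference between the control groups, so nothing about that difference is read from their motifs.

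Each value below is the log2 ratio of a mouse's liver over the reference, with arrays of both dye orientations turned the same way, a probe's own dye effect removed and the arrays of a mouse averaged. A level of 0 equals the reference, and a difference of -1 is 2-fold lower. That the deposited ratio is Cy5 over Cy3 is likely from convention, but no source used here states it. H19 and Afp, fetal liver genes known from DEN tumours, lay above the reference in some livers and below it in others, so they do not settle it. Were it Cy3 over Cy5, every higher would read lower and every lower higher. The dyes of each array are stated. Before turning, the 2 arrays of a mouse correlated over all probes at r from 0.34 to 0.51 at 3 months. At 5 months this r ranged from -0.70 to 0.18. Turning 1 array of a pair reverses the sign of r. Liver signal shared by both arrays therefore makes these values negative, and a positive r is no sign that the pair agreed. For 5-month control 4, the array with Cy5-labelled liver correlated at r from -0.61 to -0.48 with the 10 liver-in-Cy5 arrays of 3 months. The array numbers formed 4 runs: 5-month controls 1 to 5 with 5-month knockouts 1 and 2, then 5-month knockouts 3 to 5, then 3-month controls 1 to 3 with knockouts 1 and 2, then 3-month controls 4 and 5 with knockouts 3 to 5. No run held both ages, so age and run cannot be told apart. The runs are read from the array numbers alone, and the array titles give no hybridisation date or batch. The log2 ratios of an array had an SD over all probes of 0.669 to 1.28 in 3-month mice, and the range was 0.434 to 0.903 in 5-month mice. The single Met probe had mean log2 ratios of -0.81 ± 0.18, -0.39 ± 0.38, -0.73 ± 0.30 and -0.78 ± 0.45 (SD, n = 5 each) in 3-month controls, 3-month knockouts, 5-month controls and 5-month knockouts. At 3 months every knockout (-0.59 to 0.28) lay above every control (-1.0 to -0.62), against the direction of a deletion (difference 0.42 ± 0.21 SE, adjusted p = 0.655), and at 5 months the genotypes overlapped. Were the ratio Cy3 over Cy5, the 3-month difference would have the direction of a deletion. The probe's position in the gene is not given in the sources used here, so whether it lies in the deleted part is unknown, and the genotypes below are those of the labels, which this probe does not bear out. In whole liver, fewer hepatocytes and less RNA per hepatocyte cannot be told apart.

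Subunit levels were highest in 3-month controls, lower in 3-month knockouts and lowest in 5-month controls, with 5-month knockouts above their controls. The median log2 ratio over the 87 genes was 0.62, 0.47, 0.45, 0.33 and 0.75 in 3-month controls 1 to 5 and 0.57, 0.44, 0.22, 0.23 and 0.11 in 3-month knockouts 1 to 5. It was -0.17, 0.014, 0.051, -0.41 and -0.032 in 5-month controls 1 to 5 and 0.35, 0.19, 0.011, 0.0085 and 0.05 in 5-month knockouts 1 to 5. The control groups of the 2 ages did not overlap, while knockouts and controls overlapped at both ages. Group means were 0.53 ± 0.16, 0.31 ± 0.19, -0.11 ± 0.19 and 0.12 ± 0.15 in the same order (SD, n = 5). Knockout 1 was the highest knockout at each age and 5-month control 4 was the lowest of all 20 mice. Within each knockout group, mice 1 and 2 stood above mice 3 to 5, whose arrays lay in another run of numbers.

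The 5 complexes kept this order of groups, with small offsets. Complex I, where electrons from NADH enter, had median log2 ratios of 0.61, 0.56, 0.46, 0.34 and 0.84 in 3-month controls and -0.15, 0.056, 0.073, -0.37 and -0.026 in 5-month controls. Complex V, where ATP is made, had 0.63, 0.46, 0.47, 0.38 and 0.69 in 3-month controls and -0.26, -0.15, -0.055, -0.75 and -0.25 in 5-month controls. In both complexes every 3-month control lay above every 5-month control. Group means for complex II were 0.45 ± 0.12, 0.31 ± 0.12, -0.11 ± 0.25 and 0.18 ± 0.12 in 3-month controls, 3-month knockouts, 5-month controls and 5-month knockouts (SD, n = 5). Complex III had 0.60 ± 0.14, 0.29 ± 0.29, -0.0077 ± 0.24 and 0.28 ± 0.14, and complex IV 0.53 ± 0.21, 0.21 ± 0.23, -0.21 ± 0.16 and 0.023 ± 0.14. Complexes IV and V were below the reference in all 5 of the 5-month controls, whereas complexes I, II and III lay on either side of it.

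**Figure D1:**
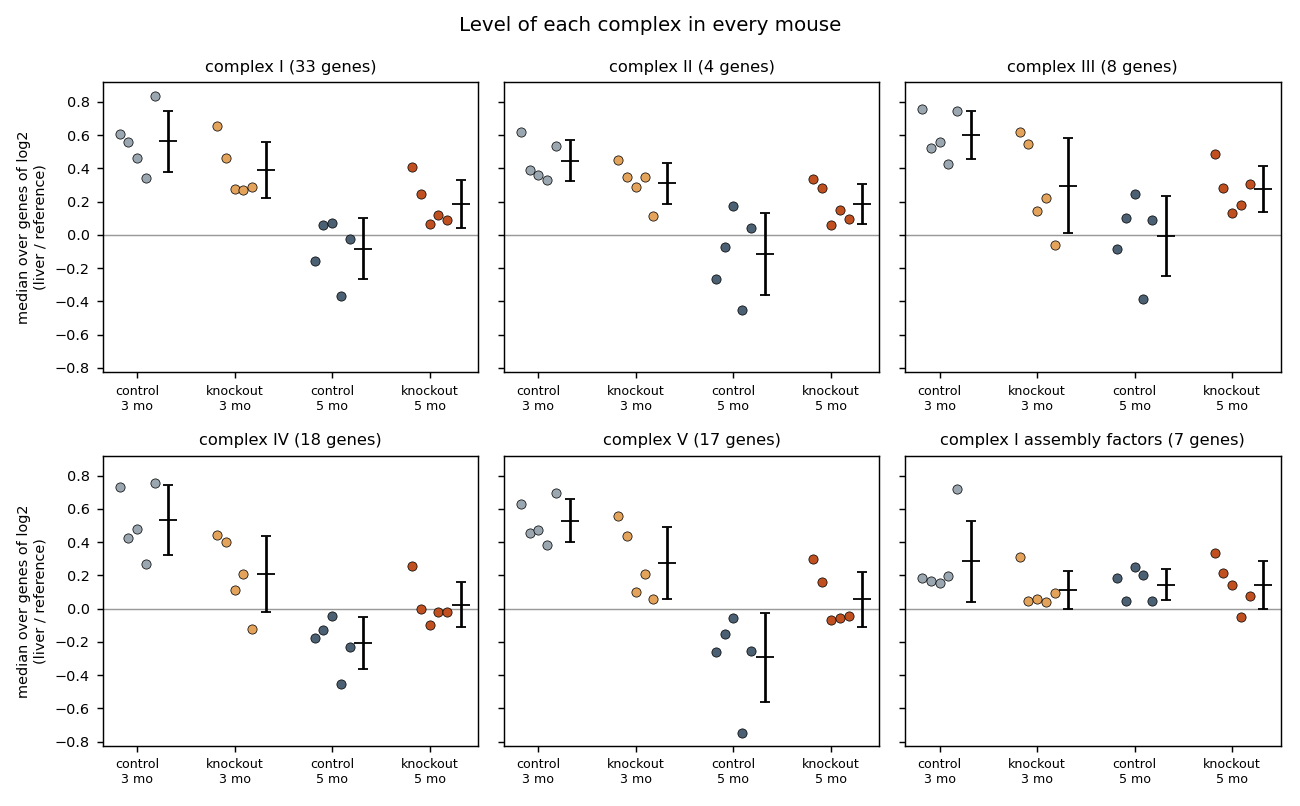
Median log2 ratio of liver over reference per mouse (vertical axis) for complexes I to V and the complex I assembly factors, in the 4 groups; each point is 1 mouse and bars give the mean ± SD of 5 mice. In complex V the 3-month controls lie between 0.38 and 0.69 and the 5-month controls between -0.75 and -0.055.

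Between 3 and 5 months in controls, most subunits of every complex fell. Tested with limma over all probes at a Benjamini-Hochberg adjusted p below 0.05, 83 member probes of 71 genes were lower at 5 months and 1 was higher; over the whole array 14.7% of probes were called, 7.25% lower and 7.41% higher. Without Sdha, 82 of 116 probes (70.7%) were called lower. The median difference over the 87 genes was -0.67 on the log2 scale, with 78 genes below 0, against a median of 0.13 over all probes. For 72 member probes the control groups did not overlap, with 5 months lower, which held for 6.03% of all probes. Centring each array on its median moved the all-probe median to about 0 and the share of all calls that were lower from 49.5% to 75.3% (61.7% after quantile normalisation). After centring, 96 member probes were called lower and 1 higher, with 13% and 4.25% of all probes, and the median gene difference was -0.81 (-0.93 after quantile normalisation).

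In complex I, 31 of 33 genes had a probe called lower at 5 months in controls, and the median gene difference was -0.64. The core subunits, which bind the flavin and the iron-sulfur clusters, had smaller differences (median -0.48 over 6 genes) than the accessory subunits that surround them (median -0.73 over 27 genes); the 2 medians were not tested against each other. Ndufv1, which binds NADH and flavin, fell by 0.58 (adjusted p = 0.00985), and the iron-sulfur subunits Ndufs1 and Ndufs7 fell by 0.46 (adjusted p = 0.0299) and by 0.50 (adjusted p = 0.0265). Ndufs8, another iron-sulfur subunit, differed by -0.35 (adjusted p = 0.0678) and was not called. Ndufs3, a core subunit of the arm that faces the matrix, fell by 0.51 on the probe with the larger difference (adjusted p = 0.0156).

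The accessory subunit Ndufa2 had the smallest adjusted p of all members. Its log2 ratios were 0.56, 0.52, 0.63, 0.30 and 0.79 in 3-month controls and -0.79, -0.67, -0.48, -1.0 and -0.57 in 5-month controls. All 3-month controls were above the reference and all 5-month controls below it, and the difference was -1.26 ± 0.15 (SE), 2.40-fold lower (adjusted p = 0.000233). In the same gene, knockouts had 0.76, 0.48, 0.092, 0.10 and 0.11 at 3 months and 0.092, -0.20, -0.36, -0.40 and -0.20 at 5 months. Ndufa4, named for complex I and now regarded as a complex IV subunit, fell by 1.22 ± 0.16 (SE, adjusted p = 0.000358). Ndufa6, Ndufc1 and Ndufc2, small accessory subunits, fell by 1.00, 1.01 and 0.99 (adjusted p = 0.00185, 0.00183 and 0.00257; for Ndufc1 the probe with the larger difference). The only complex I subunit genes without a call were Ndufs8 and Ndufab1. Ndufab1, the mitochondrial acyl carrier protein, which also serves fatty acid and lipoic acid synthesis, had differences of 0.032 (adjusted p = 0.891) and -0.26 (adjusted p = 0.132) on its probes.

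The complex I assembly factors help build the complex but are not part of it. Ndufaf1, Ndufaf3 and Ndufaf8 were called lower on 1 probe each, by 0.67, 0.39 and 0.72 (adjusted p = 0.0139, 0.0296 and 0.00291). Ndufaf4, Ndufaf5, Ndufaf6 and Ndufaf7 were not called. The median gene difference over the 7 factors was -0.16, with an SD over genes of 0.35, and was not tested against that of the subunits.

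All 4 genes of complex II, which is also an enzyme of the tricarboxylic acid cycle, had a probe called lower. Sdhd, a membrane anchor, had log2 ratios of 0.69, 0.40, 0.38, 0.072 and 0.42 in 3-month controls and -0.47, -0.31, -0.44, -0.72 and -0.28 in 5-month controls, with no overlap. The difference was -0.84 ± 0.16 (SE, adjusted p = 0.00282). Both probes of Sdhb, the iron-sulfur subunit, fell, by 0.84 and 0.73 (adjusted p = 0.00731 and 0.0206), as did both of Sdhc, the other anchor, by 0.62 and 0.59 (adjusted p = 0.00651 and 0.00892). Sdha, the flavoprotein that oxidises succinate, stood apart from its partners: its 77 probes had a median difference of -0.20, from -0.59 to 0.44, and 1 of them was called (-0.48, adjusted p = 0.0415). The median over Sdha probes ranged from -0.15 to 0.46 in 3-month controls and from -0.16 to 0.20 in 5-month controls, so these groups overlapped. These probes share 1 gene symbol and are not replicates of a condition. Within a mouse their SD ran from 0.13 (5-month control 5) to 0.43 (5-month knockout 3, where they spanned -0.44 to 2.13). Whether all of them report Sdha was not tested, which limits the contrast with its partners.

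In complex III, 5 of 8 genes were called lower and the median gene difference was -0.67. The 5 small subunits around the catalytic core had a median of -0.90, with Uqcrq on the other side of 0; they were not tested against the core proteins. Uqcr11, a small subunit, had log2 ratios of 0.27, 0.25, 0.36, 0.046 and 0.78 in 3-month controls and -0.73, -0.53, -0.52, -1.07 and -0.49 in 5-month controls, with no overlap and a difference of -1.01 ± 0.17 (SE, adjusted p = 0.00148). Uqcr10, Uqcrb and the hinge protein Uqcrh fell by 0.97, 0.90 and 0.86 (adjusted p = 0.00739, 0.00303 and 0.00554). Among the core proteins, Uqcrc2 fell by 0.48 (adjusted p = 0.0468) and Uqcrc1 differed by -0.28 (adjusted p = 0.165). The Rieske iron-sulfur protein Uqcrfs1 differed by -0.31 (adjusted p = 0.0527) on one probe and 0.55 (adjusted p = 0.176) on the other, and Uqcrq, a small ubiquinone-binding subunit, by 0.19 (adjusted p = 0.472).

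In complex IV, 12 of 18 genes had a probe called lower and the median gene difference was -0.59, the smallest in size of the 5 complexes, with an SD over genes of 0.64. Its 10 subunits of the kind liver uses had a median of -0.95, and the 7 genes known as isoforms of heart, muscle, lung or testis had -0.20; the 2 kinds were not tested against each other. Cox7b, a small subunit, had log2 ratios of 0.79, 0.84, 0.77, 0.20 and 0.89 in 3-month controls and -0.997, -0.64, -0.38, -1.33 and -0.69 in 5-month controls. The groups did not overlap, and the difference of -1.50 ± 0.21 (SE, adjusted p = 0.00063), 2.84-fold lower, was the largest fall of any member. Cox7c had 1.18, 0.95, 0.74, 0.30 and 1.06 in 3-month controls and -0.73, -0.43, -0.36, -1.08 and -0.33 in 5-month controls, a difference of -1.44 ± 0.20 (SE, adjusted p = 0.000485). Control 4 was the lowest control in both genes, at both ages. Cox6c fell by 1.33 ± 0.20 (SE, adjusted p = 0.000776). Cox4i1 and Cox5a, subunits tied to regulation of the enzyme by ATP and thyroid hormone metabolites, fell by 0.90 and 0.76 (adjusted p = 0.00442 and 0.00466).

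Of the isoforms of other tissues, Cox6b2 (testis) was called lower on 1 of 2 probes (-0.58, adjusted p = 0.0386). Cox4i2 (lung), Cox6a2, Cox7a1 and Cox8b (heart and muscle) differed by -0.32, -0.20, -0.37 and 0.43 (adjusted p = 0.158, 0.562, 0.141 and 0.143). The testis isoforms Cox7b2 and Cox8c differed by 0.40 (adjusted p = 0.674) and 0.75 (adjusted p = 0.0577). The table holds ratios only, so how far these probes lay above background is unknown.

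In complex V, 16 of 17 genes were called lower, with a median difference of -0.83. The F1 head, which makes ATP, had the smallest median (-0.40), followed by the c ring that rotates in the membrane (-0.67), the peripheral stalk that holds the head still (-0.90) and the small membrane subunits (-0.998), medians that were not tested against each other. The catalytic subunits Atp5b and Atp5a1 fell by 0.40 (adjusted p = 0.0291) and 0.42 (adjusted p = 0.0251), and Atp5d of the central stalk, the gene that was not called, differed by -0.27 (adjusted p = 0.240). Atp5e, a central stalk subunit counted with the head, fell by 1.05 (adjusted p = 0.00484). Atp5g1, Atp5g2 and Atp5g3, whose products are the same mature c subunit, fell by 0.67, 0.80 and 0.59 (adjusted p = 0.00714, 0.00183 and 0.0072). In the stalk, Atp5j and Atp5pb fell by 1.21 and 0.96 (adjusted p = 0.00312 and 0.00329), Atp5h by 0.83 (adjusted p = 0.00591) and Atp5o by 0.63 (adjusted p = 0.0115).

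Among the small membrane subunits, Atp5mpl had log2 ratios of 0.95, 1.09, 1.19, 0.61 and 0.83 in 3-month controls and -0.44, -0.081, -0.055, -0.93 and -0.30 in 5-month controls. Its difference was -1.29 ± 0.18 (SE, adjusted p = 0.000555), 2.45-fold lower. Atp5md, a subunit that bears on the pairing of ATP synthase, had -0.035, 0.13, 0.07, -0.41 and 0.53 in 3-month controls and -1.22, -0.98, -0.89, -1.45 and -1.07 in 5-month controls, a difference of -1.18 ± 0.23 (SE, adjusted p = 0.00353). Neither gene's control groups overlapped.

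**Figure D2:**
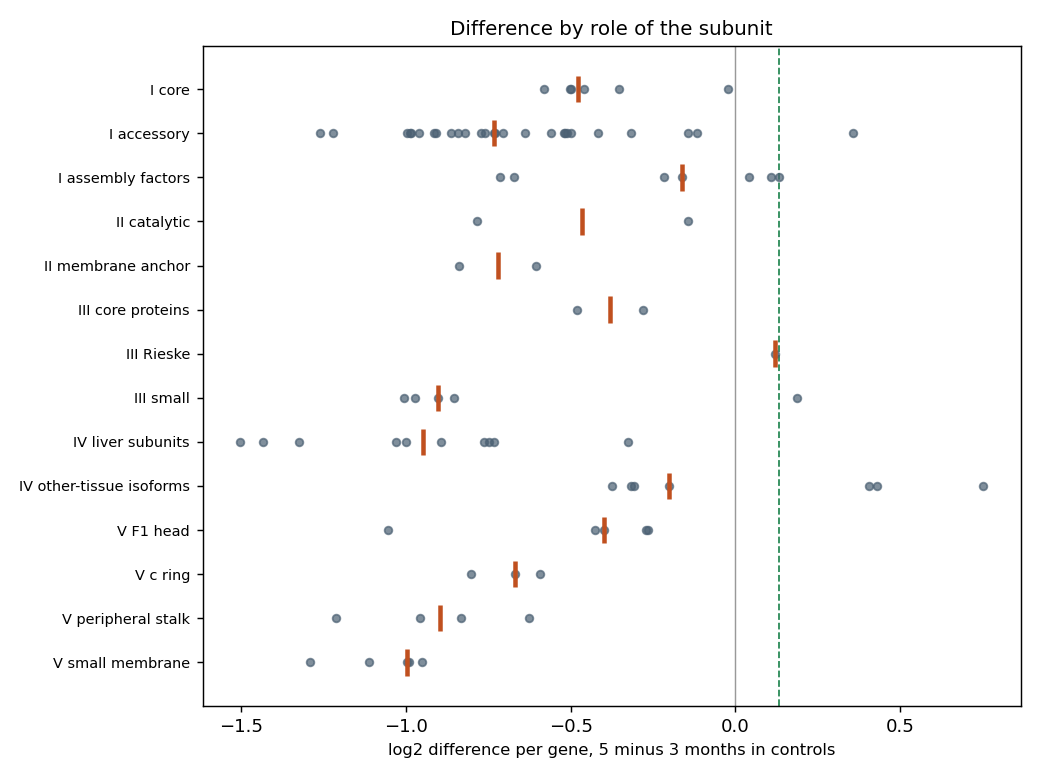
Log2 difference between 5-month and 3-month controls (5 mice each) for every member gene (points), arranged by the role of the subunit within its complex. The complex V groups run from a median of -0.40 for the F1 head to -0.998 for the small membrane subunits, and the tissue isoforms of complex IV have a median of -0.20.

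In knockouts the same interval gave smaller differences. The median over the 87 genes was -0.20, with 67 genes below 0, against 0.14 over all probes. With limma, 7 member probes were called lower and 2 higher at 5 months, and 4.73% of all probes were called (0.743% lower and 3.99% higher). Centring the arrays moved the share of all calls that were lower from 15.7% to 61.9%, and the members called then numbered 25 lower and 1 higher, with 3.53% and 2.17% of all probes. With single mice left out the count of members ran from 1 (without 5-month knockout 3) to 15 (without 3-month knockout 3). For 19 member probes, 11 of them of Sdha, every 5-month knockout lay below every 3-month knockout, which held for 2.04% of all probes. This comparison and the one in controls share no mouse, and the difference between them was not called for any member at an adjusted p below 0.05.

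The largest falls in knockouts were those of Cox6c and Ndufa6. Cox6c had log2 ratios of 0.88, 1.03, 0.025, 0.14 and 0.23 in 3-month knockouts and 0.072, -0.33, -0.53, -0.26 and -0.53 in 5-month knockouts, a difference of -0.78 ± 0.20 (SE, adjusted p = 0.0343). These groups overlapped, since 5-month knockout 1 lay above 3-month knockout 3. Ndufa6 had 0.95, 1.02, 0.33, 0.38 and 0.37, then 0.14, -0.15, -0.44, -0.19 and -0.12, a difference of -0.76 ± 0.17 (SE, adjusted p = 0.0238) with no overlap. Ndufaf8, an assembly factor, fell by 0.64 (adjusted p = 0.0185), the smallest adjusted p of the members in this comparison. Ndufc1, Ndufa12, 1 probe of Sdha and 1 of Cox5b also fell, by 0.58, 0.53, 0.47 and 0.46 (adjusted p = 0.0455, 0.0489, 0.0444 and 0.0484). Of the 2 probes called higher, Cox8c (testis) rose by 1.19 (adjusted p = 0.0219), without overlap, although 3-month knockout 2 at -0.25 lay beside 5-month knockout 2 at -0.23. Another of the 3 Cox5b probes rose by 1.21 (adjusted p = 0.0472), so Cox5b has no settled direction in knockouts. The probe that rose also stood apart between control groups, at 0.65 (adjusted p = 0.187) against -0.85 and -0.78 for the others.

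Knockout livers at 5 months stood above their controls in most members, by amounts that no single member carried past the threshold. The median over the 87 genes was 0.24, with 77 genes above 0, against 0.014 over all probes. Ribosomal protein and proteasome sets, given further below, also had medians above 0. With limma, 0 of 193 member probes were called, when 0.145% of all probes were called (0.128% higher). At an unadjusted p below 0.05 there were 41 member probes, 40 of them higher, and 10.5% of all probes (7.07% higher). Without Sdha there were 38 of 116, all of them higher: 14 in complex I, 3 in complex II, 3 in complex III, 8 in complex IV and 10 in complex V. For 12 member probes every knockout lay above every control, which held for 2.59% of all probes. They were 1 probe each of Ndufa2, Ndufa7, Ndufa12, Ndufb2, Ndufb4 and Ndufb11 of complex I, Uqcr11 of complex III and Cox6b1 of complex IV. The rest were of Atp5h, Atp5j, Atp5md and Atp5pb of complex V. Ndufb2, Ndufb4, Cox6b1 and Atp5md have further probes, for which this did not hold. The other Ndufb4 probe differed by -0.96 (limma adjusted p = 0.567), against 0.71 for the probe counted here. After quantile normalisation 6 members were called higher, with 1.18% of all probes called higher, and the share of all calls that were lower was 43.7% against 11.3% as deposited.

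By complex, the median gene differences at 5 months were 0.24, 0.23, 0.33, 0.22 and 0.27 for complexes I to V and -0.067 for the complex I assembly factors. Core subunits of complex I had a median of 0.13 and accessory subunits 0.27. The liver subunits of complex IV had 0.36 and its isoforms of other tissues 0.091. In complex V the F1 head had 0.23, the peripheral stalk 0.46 and the small membrane subunits 0.41.

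Ndufa12, an accessory subunit of the complex I arm that oxidises NADH, had the lowest adjusted p. Its log2 ratios were -0.39, 0.054, 0.21, -0.58 and -0.25 in 5-month controls and 0.72, 0.50, 0.49, 0.34 and 0.51 in 5-month knockouts. The groups did not overlap, and the difference was 0.71 ± 0.15 (SE), 1.63-fold higher (adjusted p = 0.0759). It passed the threshold without 5-month control 3 (0.81, adjusted p = 0.0263) and after quantile normalisation (adjusted p = 0.0155). Atp5md had -1.22, -0.98, -0.89, -1.45 and -1.07 in controls and 0.21, -0.059, -0.87, -0.62 and -0.64 in knockouts, a difference of 0.73 ± 0.23 (SE, adjusted p = 0.268) whose groups met at -0.89 and -0.87. Cox7b had -0.997, -0.64, -0.38, -1.33 and -0.69 in controls and 0.10, 0.07, -0.47, -0.46 and -0.34 in knockouts, a difference of 0.59 ± 0.21 (SE, adjusted p = 0.339), and these groups overlapped. Sdhb of complex II differed by 0.56 ± 0.20 (SE, adjusted p = 0.326) and Uqcr11 of complex III by 0.40 ± 0.17 (SE, adjusted p = 0.396).

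The run of array numbers bears on this comparison, since 5-month knockouts 1 and 2 shared the run of the controls and knockouts 3 to 5 did not. Within the run that held both genotypes, 5 controls against 2 knockouts, the median gene difference was 0.39 with 79 genes above 0. Knockout 2 had only a liver-in-Cy3 array, so its values there rest on a dye effect estimated from other mice. Its median over the member genes was 0.105 before that step and 0.19 after it. In that run every knockout lay above every control in complexes I to V: for complex V the controls ranged from -0.75 to -0.055 and the knockouts from 0.16 to 0.30. Knockouts 3 to 5 had complex V medians of -0.068, -0.059 and -0.048, beside the highest control at -0.055. Without 5-month control 4, the lowest mouse, the median gene difference over all runs was 0.17.

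**Figure D3:**
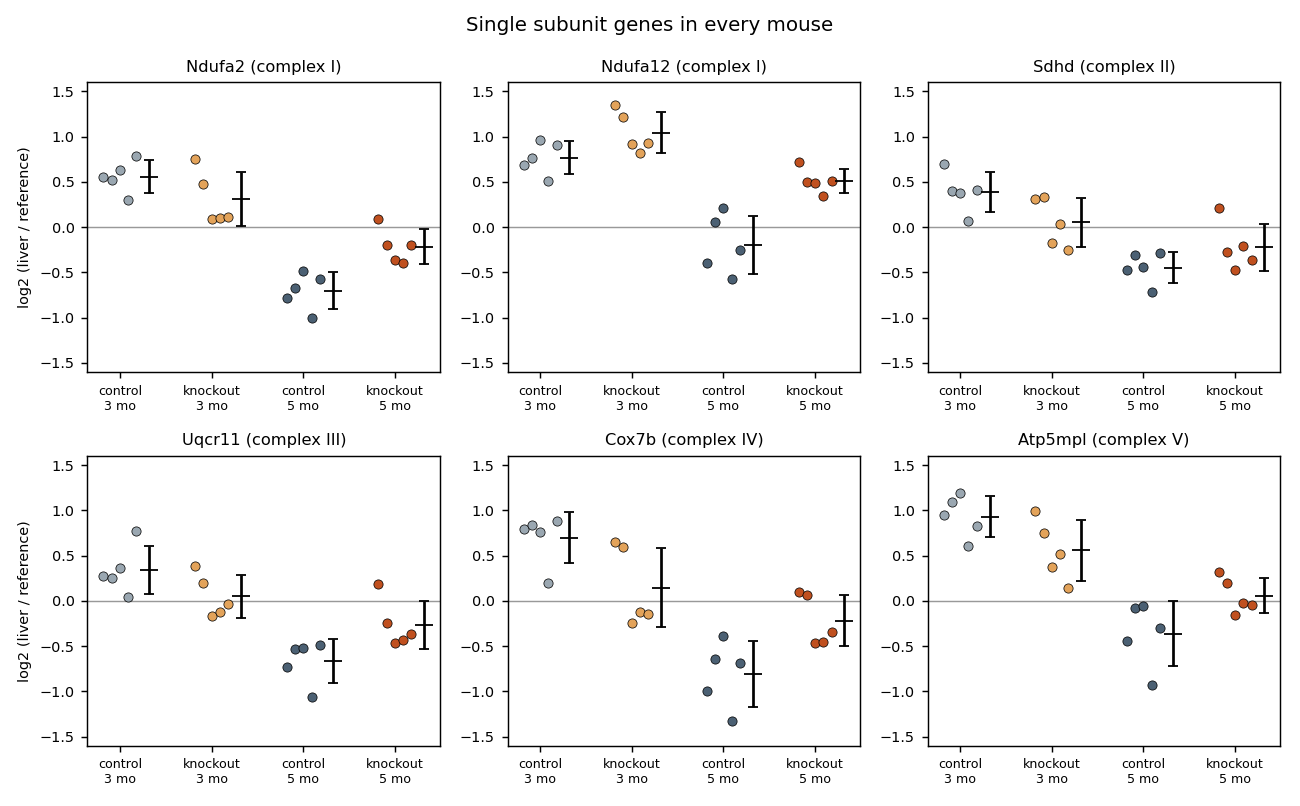
Log2 ratio of liver over reference for each of 20 mice (points; bars are the group mean ± SD, n = 5) for 6 subunits: Ndufa2 and Ndufa12 (complex I), Sdhd (II), Uqcr11 (III), Cox7b (IV) and Atp5mpl (V). In Ndufa12 all 5-month knockouts, from 0.34 to 0.72, lie above the 5-month controls, from -0.58 to 0.21, and in Cox7b the 3-month knockouts fall into mice at 0.59 and 0.65 and mice from -0.24 to -0.12.

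At 3 months the members leaned the other way. The median over the 87 genes was -0.22, with 77 genes below 0, against -0.025 over all probes. None of the 193 member probes was called with limma, when 0.0355% of all probes were. At an unadjusted p below 0.05 there were 14 member probes (7.25% of the members), 13 of them lower, and 7.96% of all probes (5.82% lower). Without Sdha there were 11 of 116 (9.48%), all lower. For 0 members did the knockouts lie wholly below the controls (0.929% of all probes). Complexes I to V had median gene differences of -0.14, -0.23, -0.28, -0.27 and -0.24.

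Atp5o, the stalk subunit that joins the ATP synthase head to its anchor, had the lowest adjusted p at 3 months. Its log2 ratios were 0.67, 0.41, 0.44, 0.47 and 0.75 in controls and 0.52, 0.35, -0.021, 0.064 and -0.25 in knockouts, a difference of -0.41 ± 0.15 (SE, adjusted p = 0.448). Knockouts 1 and 2 lay at or near the control range and knockouts 3 to 5 lay below it. The same division showed in Cox7b, with knockouts at 0.65, 0.59, -0.24, -0.12 and -0.15 and controls at 0.79, 0.84, 0.77, 0.20 and 0.89 (difference -0.55 ± 0.21 SE, adjusted p = 0.491). Uqcrh, the complex III hinge protein, differed by -0.36 ± 0.18 (SE, adjusted p = 0.651). Among the few members on the other side, Ndufa12 differed by 0.28 (adjusted p = 0.704).

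The 3-month difference was near 0 in one array run and not in the other. In the run with controls 1 to 3 and knockouts 1 and 2 the median gene difference was -0.023, with 33 genes above and 54 below 0. In the run with controls 4 and 5 and knockouts 3 to 5 it was -0.35, with 78 genes below 0. For complex III the first run gave -0.0041 and the second -0.38. With the run as a covariate the median gene difference was -0.18 at 3 months. At 5 months this fit gave 0.39, which only repeats the value of the run with both genotypes. The other 5-month run held knockouts 3 to 5 and no control, so those mice add nothing to it.

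The median genotype difference had opposite signs at the 2 ages, and the test of that change gave 0 calls, among the members and over all probes (0% called). The median over the 87 genes of the 5-month difference minus the 3-month difference was 0.47, with 83 genes above 0, against 0.06 over all probes. At an unadjusted p below 0.05, 53 member probes were higher and none lower, against 7.74% of all probes (5.61% higher). The lowest adjusted p was that of 1 probe of Ndufb4, an accessory subunit of complex I (0.431).

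**Figure D4:**
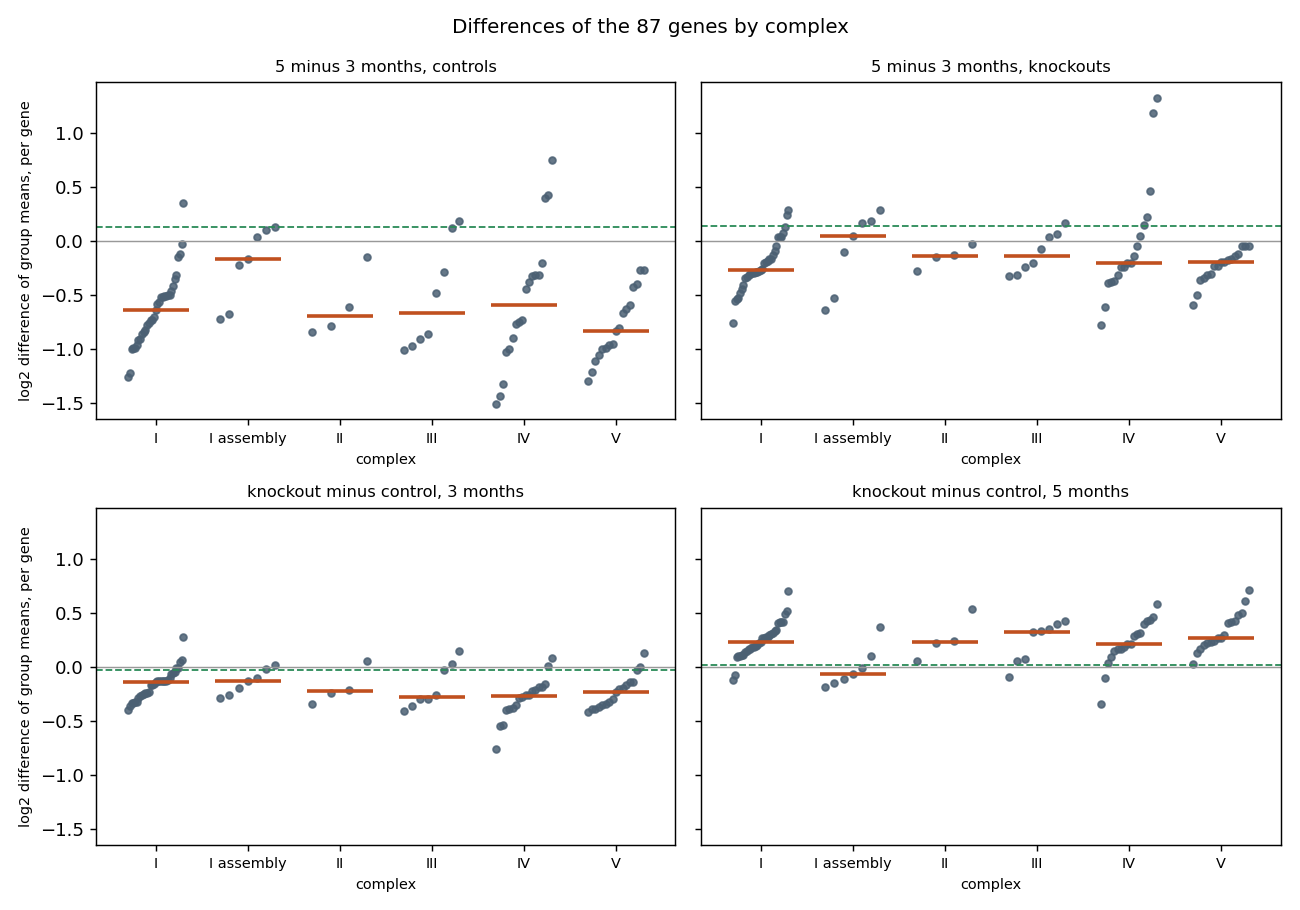
Log2 differences of single member genes (points) by complex in 4 panels: 5 minus 3 months in controls, the same in knockouts, and knockout minus control at 3 and at 5 months (5 mice a group). Orange lines are the medians of a complex and the green dashed line is the median over all probes; for complex V the medians are -0.83, -0.19, -0.24 and 0.27 in this order.

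Probes of 1 gene did not always move together. Of the 25 genes other than Sdha with several probes, 11 had probes of opposite sign between the control groups, and 8 at each age between genotypes. The widest disagreement was in Ndufb4. One of its probes fell by 1.02 (adjusted p = 0.00495), and the other was the member called higher, with log2 ratios of -2.61, 0.11, -1.39, 0.37 and -1.0 in 3-month controls and 1.17, 1.54, 0.34, 0.82 and 0.29 in 5-month controls (difference 1.73, adjusted p = 0.0374). These groups overlapped, because 3-month control 4 lay above the lowest 5-month controls. The probes of Ndufv2, a core flavoprotein subunit, differed by -0.67 (adjusted p = 0.0204) and 0.62 (adjusted p = 0.105).

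The direction between the control groups was the same with either dye. From liver-in-Cy5 arrays alone the median gene difference was -0.73 and from liver-in-Cy3 arrays alone -0.61, and 71 of 87 genes had the same sign in both. The median over all probes was 0.46 and -0.27 in these arrays, so the background differed with the dye while the members were below it in each. At 5 months the genotype difference was 0.32 and 0.25, with 72 genes of the same sign, and at 3 months -0.17 and -0.24, with 73. Leaving out 1 array of 5-month control 4 (liver in Cy5) gave a median of -0.58 between control groups with 78 members called, and leaving out the mouse gave -0.57 with 64 called.

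**Figure D5:**
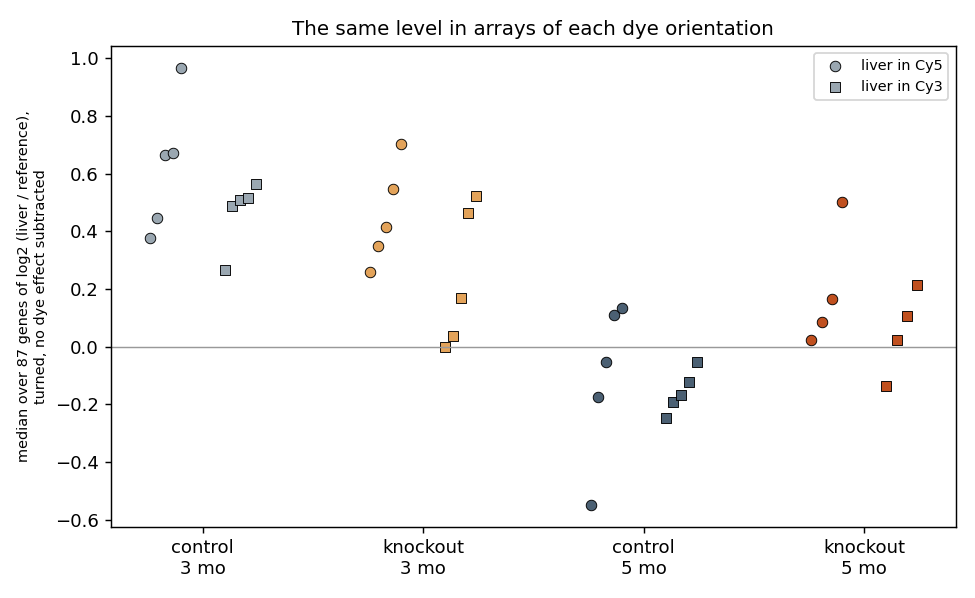
Median log2 ratio over the 87 genes for every array, by group, turned to liver over reference. Circles are liver-in-Cy5 arrays and squares liver-in-Cy3 arrays. Within each group and orientation the points are sorted by value, so their order does not identify the mouse. No dye effect is subtracted. The control groups keep their order in each orientation, with differences of -0.73 and -0.61 in the median gene.

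Genes around the respiratory chain had smaller median differences in controls between 3 and 5 months, though no list was tested against the members. These lists were chosen with earlier results of these data known. Of 12 electron carrier genes the median was -0.35, and 6 of 16 probes were called lower, for Etfa, which feeds electrons from fatty acid oxidation, cytochrome c (Cycs) and the ubiquinone synthesis genes Coq5 and Coq7. Cycs fell by 0.82 (adjusted p = 0.0236). Of 15 genes of the tricarboxylic acid cycle and pyruvate dehydrogenase the median was -0.33, with 8 probes called lower, among them Mdh2 (-0.73, adjusted p = 0.00403), and 1 of Ogdh higher. Mitochondrial import and outer membrane genes had a median of -0.36 over 13 genes (7 probes lower, 1 higher). Assembly factors whose names the member rule does not reach had -0.083 over 28 genes (5 probes lower, 2 higher).

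Regulators of mitochondrial gene expression had values near that of all probes. Over 14 transcription and biogenesis genes the median was 0.092, with 1 probe called lower (Tfb2m, 1 of 3) and 2 higher (1 probe each of Gabpa and Gabpb1, whose other probes were not called). Single probes of Nrf1 and Esrra differed by -0.13 (adjusted p = 0.498) and 0.12 (adjusted p = 0.432). Glycolysis genes had a median of -0.12 over 12 genes. At 5 months between genotypes no probe of these lists was called, and their medians were 0.15 for electron carriers, 0.23 for the tricarboxylic acid cycle, 0.23 for import, -0.024 for biogenesis and 0.097 for glycolysis.

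Other large protein machines also had many probes called lower in 5-month controls. Mitochondrial ribosomal proteins had a median probe difference of -0.35 with 36.0% of probes called lower, cytosolic ribosomal proteins -0.58 with 52.9% and proteasome subunits -0.44 with 45.3%. Counted in the same way, over all probes, the members had -0.30 with 43.0%, and -0.67 with 70.7% without the Sdha probes. Between genotypes the 3 sets, in the same order, had medians of 0.13, 0.29 and 0.16 at 5 months and -0.13, -0.17 and -0.12 at 3 months. The change between ages was 0.21, 0.43 and 0.25. Over all member probes these medians were 0.17, -0.09 and 0.21. Of these sets, 1 cytosolic ribosomal probe was called between genotypes, higher at 5 months. The differences between these sets and the members were not tested.

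Among cell type markers, those of hepatocytes and macrophages were lower in 5-month controls and those of other cells had medians nearer to 0 or above it. Of 10 hepatocyte markers, 4 probes were called lower between control groups (for Ass1, Cps1 and Ttr), and their median difference was -0.32. Their median per mouse lay between 0.12 and 0.19 in the 3-month controls and 0.023 and 0.19 in the 3-month knockouts, and between -0.56 and 0.044 in controls of 5 months and -0.091 and 0.11 in knockouts of 5 months. Of 9 Kupffer cell and macrophage genes, 4 probes were called lower, with a median of -0.49 between control groups and 0.54 between genotypes at 5 months; their median per mouse lay between -0.76 and -0.076 in the controls of that age and between -0.091 and 0.44 in the knockouts. Between control groups the medians were -0.13 for endothelial, -0.11 for stellate, -0.037 for T and B cell, 0.04 for bile duct and 0.0074 for muscle genes, and 0.35 for both neutrophil and brown fat genes. Calls were 2 probes lower for endothelial genes (Fcgr2b and Kdr) and 4 lower and 1 higher for stellate genes, and 0 for the other lists. At 3 months the 6 muscle genes had a median of -0.37 between genotypes with 0 probes called, and their median per mouse lay between -0.60 and 0.59 in controls and between -0.999 and -0.27 in knockouts. The part of any of these cell types in the subunit differences was not tested.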

How the data were processed

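The authors co-hybridised each liver with a pooled reference, extracted RNA on caesium chloride gradients, left out invalid features and normalised each array to its median signal in mAdb, per the labels' protocols. The deposited ratios were nevertheless not centred on 0, with array medians from -0.649 to 0.089, and the main fit did not centre them. The deposited values are log2 ratios; the log base was read from the steps of the values, and depth and signal over background are unknown. The numerator is taken as Cy5. Arrays with the liver in Cy3 had their sign turned, a dye effect per probe, estimated from the 18 mice that had arrays of both kinds, was taken off before averaging the arrays of a mouse. For 5-month knockouts 2 and 3, which had 1 orientation each, this estimate stands in for the missing array. It was pooled over both ages, although all-probe medians of liver-in-Cy5 arrays lay lower at 3 months. It moved the all-probe medians of these 2 mice from 0.218 to -0.043 and from -0.057 to 0.20, the lowest and highest of their group. The median gene difference between genotypes at 5 months was 0.24 with and without the dye effect subtracted. Limma 3.58.1 in R 4.3.3 fitted 4 groups of 5 mice over 36607 probes, with Benjamini-Hochberg adjustment over all of them, a threshold of 0.05, and no filter. The procedure was tested on simulated data. The number of arrays limits precision, and p-values measure the spread between these mice.

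Of the probes, 26926 had 1 gene symbol, 203 several and 9478 none; members needed 1 symbol. Members and lists were chosen with earlier results of these data known. Genes were named if called in any contrast, if among the 3 highest or lowest moderated t per complex between genotypes, or if core subunits or isoforms of other tissues. Samples with the same number did not deviate together (r from -0.20 to 0.25), so numbers were not used as pairs. Promoters came from RefSeq (GRCm38.p6). No probe coordinates are given, because the build of the files is not given in the sources used here.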

Additional observations from a re-analysis of the deposited data

Results flagged for a closer look

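Of 160 groups of 5 mice examined, 9 had a mouse whose gap to the next exceeded the 95% limit of Dixon's ratio (0.71), about the 1 in 20 that chance gives. In medians by complex, 3-month control 5 had 0.72 and 3-month knockout 1 had 0.31 for the complex I assembly factors, where the other mice of their groups had 0.15 to 0.20 and 0.041 to 0.095. Complex IV stood at 0.26 in 5-month knockout 1, against -0.097 to -0.0012 in the other knockouts. In 5-month control 4 the core of complex I stood at -0.29, against 0.12 to 0.23, and the F1 head of complex V at -0.32, against 0.086 to 0.22. The small subunits of complex III stood at 0.48 in 3-month control 4, against 0.73 to 0.77. Among single probes, 1 of Sdha stood at 0.63 in 5-month knockout 3, against -0.049 to 0.053, 1 of Sdhb at 1.11 in 3-month control 5, against 0.24 to 0.44, and Cox7b at 0.20 in 3-month control 4, against 0.77 to 0.89. All are log2 ratios of liver over reference.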

How the results depend on the processing

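Over all 193 probes the median difference was -0.09 and 0.17 between genotypes at 3 and 5 months, 0.21 for the change between them, and -0.30 and -0.19 between ages in controls and knockouts. Without the 77 Sdha probes, an alternative chosen after seeing the data, these became -0.23 at 3 months, 0.47 for the change and -0.67 in controls, and with 1 value per gene 0.47 and -0.67. In controls the median was -0.45 after centring and -0.46 after quantile normalisation, and in knockouts -0.36 and -0.33. Calls between ages in knockouts numbered 9, and 26 after centring, 40 with liver-in-Cy5 arrays alone, 0 with liver-in-Cy3 arrays alone and 4 without the dye effect. They ranged from 1 (without 5-month knockout 3) to 15 (without 3-month knockout 3) when 1 mouse was left out, and were 2, 3 and 4 without 3-month knockouts 1, 2 and 4, 5, 4 and 4 without 5-month controls 1, 2 and 5, and 4, 4 and 3 without 5-month knockouts 2, 4 and 5. Calls between genotypes at 5 months were 6 after quantile normalisation and ranged from 0 to 1 with a mouse left out. Those between control ages ranged from 64 (without 5-month control 4) to 90 (without 3-month control 5), with 2351 and 6595 of all probes called. One Cox5b probe reversed between ages in knockouts with liver-in-Cy3 arrays alone (-0.38, adjusted p = 0.809). The cause was not tested. There were 226 results of single named probes, and only those called in the main fit could lose a call. These were 83 lower and 1 higher between ages in controls, and 7 lower and 2 higher in knockouts. Of them, 24 lost their call with liver-in-Cy3 arrays alone, 7 without the dye effect and 4 with liver-in-Cy5 arrays alone. A further 4 did so after quantile normalisation, 1 after centring and 21 without 5-month control 4, each counted separately. With the number as a replicate block, 83 and 9 members were called between ages in controls and knockouts and 0 between genotypes, so this pairing changed no count of member calls by over 1.5 times, and 3 named probes lost their call. Over all probes the block took the calls between genotypes from 13 to 3 at 3 months and from 53 to 16 at 5 months. The array run could not be fitted as a covariate between ages. A plain version of the methods' t-test called 0 members at either age. The 5 mice per group limit what is detectable.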
